A study of Homo sapiens with 8 samples.

Results

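The DNA topoisomerases and the enzymes that remove them from trapped DNA comprised 8 genes: TOP1, TOP1MT, TOP2A, TOP2B, TOP3A, TOP3B, TDP1 and TDP2. They were taken from the 20897 genes of the deposited tables by their Ensembl IDs and not by a cut on their values, and all 8 had a row. RNA was measured by sequencing in HepG2, an established human liver carcinoma line that serves as a model of hepatocytes. The 3 groups were genistein, a soy isoflavone (3 libraries), BMP6, a bone morphogenetic protein that raises hepcidin in liver cells (50 ng/ml, 2 libraries), and DMSO, the vehicle (3 libraries). The title of the series names genistein and hepcidin, so the topoisomerases were not its stated subject. Every well held 1% DMSO, the genistein and BMP6 wells included. All cells were moved to 1% serum at 24 h after plating, kept there for 8 h and treated for 18 h. The genistein dose was 10 micromolar by the series design, whereas the treatment protocol gives the same figure in millimolar, and the conflict could not be settled. All libraries came from this 1 line, and the series design calls them biological replicates.

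Topoisomerases relieve the twists and tangles that replication, transcription and chromosome segregation put into DNA. Type I enzymes (TOP1, TOP1MT, TOP3A, TOP3B) cut a single strand, and type II enzymes (TOP2A, TOP2B) cut both strands and pass another duplex through the gap. Each enzyme is joined to DNA through a tyrosine while it works. Drugs that trap this state turn the enzyme into a lesion, and genistein is known as such a poison of type II topoisomerases in addition to its inhibition of tyrosine kinases. TDP2 hydrolyses the tyrosine bond left by type II enzymes, and TDP1 the one left by TOP1.

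The values are FPKM (fragment counts per transcript length and library size) as deposited by the authors, and the sequencing depth is unknown. FPKM lets levels of different genes be set side by side, but the libraries differed in their relation to transcript GC content, as given below. The orders, shares and ratios of genes were not corrected for it. FPKM totals lay between 1704599 and 3105197 per library. Genistein 2 and DMSO 1 stood apart by their zeros, with 2167 and 1679 tested genes at 0 where the remaining libraries had 356 to 962, and the BMP6 pair had the lowest within-group correlation across tested genes (0.847, against 0.884 to 0.963 within genistein and DMSO). All 8 hepatocyte markers were expressed in every library. They summed to 132116 to 213522 FPKM after genistein, 203916 to 224025 after BMP6 and 176097 to 220587 in DMSO. Single markers differed in opposite directions. APOA1 stood at 3983 to 12742 FPKM after genistein, 3963 and 36158 after BMP6 and 50517 to 58896 in DMSO. TTR stood at 822 to 1576, 1456 and 4173, and 7162 to 8195 FPKM in the same order. ALB stood at 45780 to 61916, 143115 and 59633, and 17949 to 40448 FPKM. Of 6 fibroblast markers 5 were at 0 throughout, and PDGFRB lay at 0 to 2.92 FPKM after genistein, 14.3 to 19.5 after BMP6 and 1.88 to 4.91 in DMSO. The 3 endothelial markers summed to 0 FPKM in the genistein and DMSO libraries and to at most 1.71 after BMP6. Of 5 leukocyte markers PTPRC and CD3E were at 0 in all 8 libraries, and CD79A was at 0 in 6. The list summed to 1218 to 1925 FPKM after genistein, 1552 to 2391 after BMP6 and 3250 to 4839 in DMSO, nearly all of it LYZ. CD68 went the other way, at 68.8 to 86.7 FPKM after genistein, 59.6 and 41.7 after BMP6 and 31.4 to 40.6 in DMSO. The part of these markers in the results was not tested.

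The promoter of TOP2A is shown because it carries the sequence elements known from cell cycle genes, and the promoters at both starts of its paralogue TOP2B are shown beside it. The CCAAT box is bound by NF-Y, and TTTGAA is the core of the cell cycle homology region bound by the MuvB complexes that time G2 and mitosis genes. The windows run from 250 bases before to 50 bases after the start, in RefSeq's GRCh38.p14, and are written 5′ to 3′ along the gene. Capitals mark both motifs on either strand, and no matches overlap. A reversed CCAAT box reads ATTGG. The reverse of the other motif reads TTCAAA.
TOP2A, chr17:40417847-40418146, minus strand: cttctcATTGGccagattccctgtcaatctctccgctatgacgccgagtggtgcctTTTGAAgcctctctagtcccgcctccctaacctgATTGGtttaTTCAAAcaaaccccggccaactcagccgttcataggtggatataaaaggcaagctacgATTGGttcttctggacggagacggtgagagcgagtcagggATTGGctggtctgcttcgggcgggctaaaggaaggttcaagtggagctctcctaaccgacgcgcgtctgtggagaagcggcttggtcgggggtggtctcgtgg
TOP2B, first start, chr3:25664858-25665157, minus strand: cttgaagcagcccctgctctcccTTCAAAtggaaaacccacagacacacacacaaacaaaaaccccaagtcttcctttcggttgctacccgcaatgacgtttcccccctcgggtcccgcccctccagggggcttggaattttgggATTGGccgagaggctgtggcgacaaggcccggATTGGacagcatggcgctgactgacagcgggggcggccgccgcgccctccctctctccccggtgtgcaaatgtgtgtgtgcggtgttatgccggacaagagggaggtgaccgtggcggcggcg
TOP2B, second start, chr3:25664323-25664622, minus strand: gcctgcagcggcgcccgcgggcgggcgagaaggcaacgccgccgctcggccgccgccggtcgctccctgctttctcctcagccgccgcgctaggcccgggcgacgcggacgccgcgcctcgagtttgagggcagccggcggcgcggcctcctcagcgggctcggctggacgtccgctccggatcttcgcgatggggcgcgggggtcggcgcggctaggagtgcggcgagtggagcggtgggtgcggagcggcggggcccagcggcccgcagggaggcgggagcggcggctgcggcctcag
TOP2A held 4 CCAAT boxes, all reversed, whose first bases lie 244, 160, 93 and 53 bases before the start, and 2 TTTGAA motifs at 194 and 151 bases before it. The upstream TOP2B window held 2 CCAAT boxes and 1 TTTGAA, and the downstream window held neither. Of the other members with a window, TOP1, TOP3A, TOP3B and TDP2 held neither motif and TDP1 held 1 TTTGAA. Over 35116 promoter windows, 34.6% held CCAAT and 15.2% held TTTGAA on either strand. Of 24 windows of G2 and mitosis genes, 19 held CCAAT and 15 held TTTGAA. A match describes the letters in the window and is not evidence of binding.

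All 8 members were expressed in every library, and all passed the filter of at least 1 FPKM in at least 2 libraries. TOP2A, the isoform of dividing cells, had the highest mean in each group: 468 ± 143 FPKM after genistein, 726 ± 420.2 after BMP6 and 246 ± 81.3 in DMSO (SD, n = 3, 2 and 3). TOP1, the main nuclear relaxing enzyme of transcribed DNA, stood next after genistein at 281 ± 41.1 FPKM. TOP1 also stood next after BMP6 at 156 ± 20.0 FPKM, whereas TOP1MT, the mitochondrial enzyme, held that place in DMSO at 200.9 ± 54.98. The lowest means were those of TOP3A after genistein (23.9 ± 5.90 FPKM), TDP1 after BMP6 (23.3 ± 1.35) and TDP1 in DMSO (17.6 ± 4.26).

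Neighbours in the order of levels were often not separated. After genistein the order was TOP2A, TOP1, TOP2B, TOP1MT, TDP2, TOP3B, TDP1 and TOP3A, and only TOP1 over TOP2B, TDP2 over TOP3B and TOP3B over TDP1 had ranges that did not overlap. After BMP6 the order was TOP2A, TOP1, TDP2, TOP2B, TOP1MT, TOP3B, TOP3A and TDP1, and only TOP2A over TOP1 was separated. In DMSO the order was TOP2A, TOP1MT, TDP2, TOP1, TOP2B, TOP3A, TOP3B and TDP1, and only TOP1 over TOP2B was separated. TOP2A was above TOP1MT in 2 of 3 DMSO libraries, and TOP1MT was the higher of the pair in DMSO 1.

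**Figure D1:**
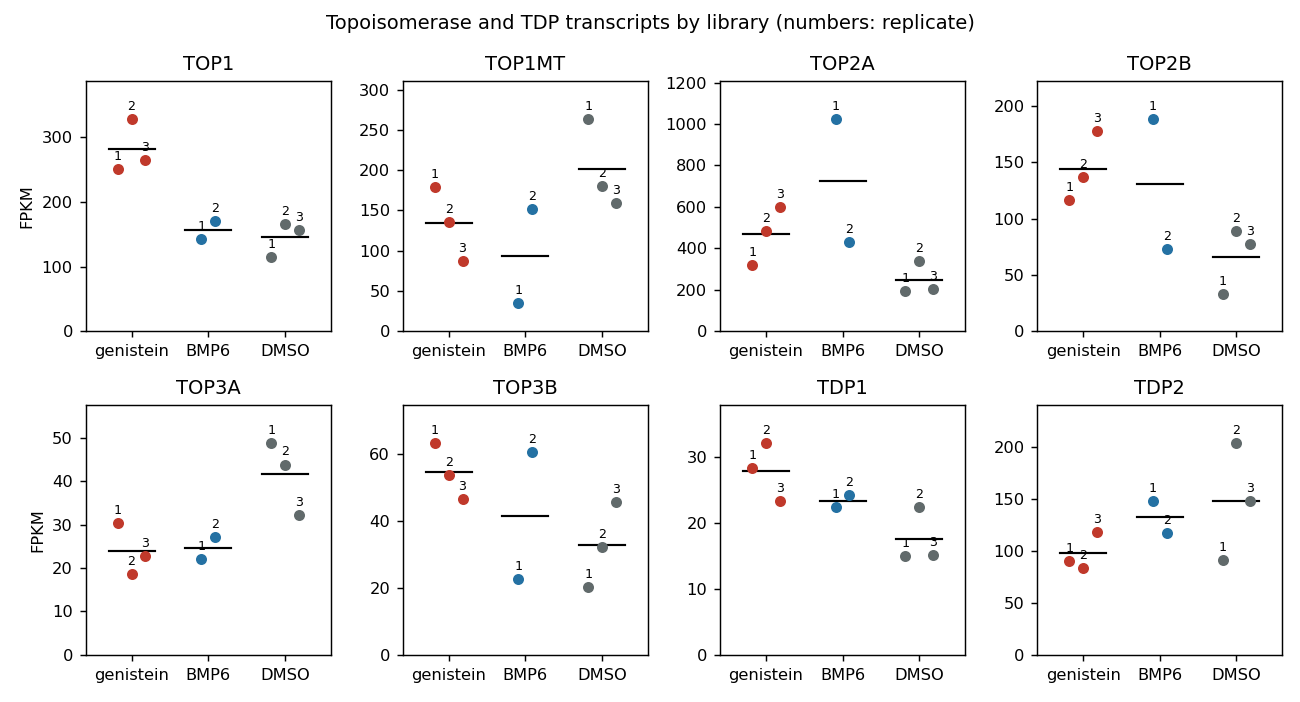
FPKM of the 8 members in each library on linear axes starting at 0, by group (genistein, BMP6, DMSO); points are libraries with their replicate numbers and bars are group means. All genistein points of TOP1 lie above its BMP6 and DMSO points, while the 2 BMP6 points of TOP1MT, TOP2A and TOP2B lie far apart.

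Genistein against DMSO asks which of these transcripts differed after 18 h of a compound known to poison type II enzymes. No member passed the test (limma, 0 of 8 at an adjusted p under 0.05; background 12.1% of 12661 tested genes), and 2 of 8, TOP1 and TOP2B, had an unadjusted p under 0.05 (background 30%). In 5 of 8 members the genistein and DMSO libraries did not overlap (background 43.9%). The median log2 difference of the 8 was 0.71, beside 0.05 over all tested genes. In a bulk sample, a different share of cells in a phase of the cell cycle and a different amount of RNA per cell cannot be told apart.

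TOP2A (ENSG00000131747; hg18, chromosome 17, 35798321 to 35827934), whose promoter window is given above, stood at 317, 485 and 601 FPKM in genistein 1, 2 and 3, against 195, 339 and 203 FPKM in DMSO 1, 2 and 3. The genistein mean was the higher, but genistein 1 lay below DMSO 2, so the groups overlapped. The log2 difference was 0.93 ± 0.44 (SE; 95% interval -0.09 to 1.94; limma adjusted p = 0.1998). TOP2B (ENSG00000077097; hg18, chromosome 3, 25614494 to 25680792) is the isoform that resting cells also express. It stood at 116, 137 and 178 FPKM after genistein, against 32.6, 88.5 and 77.1 FPKM in DMSO. All genistein libraries were above all DMSO libraries, and DMSO 1 was the lowest of the set. The log2 difference was 1.21 ± 0.49 (95% interval 0.07 to 2.34; limma unadjusted p = 0.0397, adjusted p = 0.146).

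TOP1 (ENSG00000198900; hg18, chromosome 20, 39090876 to 39186541) stood at 251, 328 and 264 FPKM after genistein, against 115, 166 and 156 FPKM in DMSO. The groups were well apart, the lowest genistein library lying above the highest DMSO library. TOP1 had the smallest p of the members, with a log2 difference of 0.95 ± 0.29, or 1.93-fold on the FPKM + 1 scale (95% interval of the log2 difference 0.29 to 1.603; limma unadjusted p = 0.0102, adjusted p = 0.0671). Over 23 settings, 1 library left out included, its adjusted p ran from 0.0108 to 0.196, and it was under 0.05 in 4 of them. It passed at 0.0376 without BMP6 1 and at 0.0366 without BMP6 2, libraries that enter this comparison only through the shared spread. Reads of the TOP1 pseudogenes TOP1P1 and TOP1P2, which have no row of their own, could be counted with TOP1.

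TOP1MT (ENSG00000184428; hg18, chromosome 8, 144462910 to 144488425) stood at 179, 136 and 87.3 FPKM after genistein, against 263, 180.1 and 159 FPKM in DMSO. The highest genistein library lay between DMSO 2 and DMSO 3, so the groups overlapped. Its log2 difference came to -0.61 ± 0.55 (limma adjusted p = 0.490). Among these nuclear-encoded enzymes it is the one that acts only in mitochondria.

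The type IA enzymes had differences of opposite sign. TOP3A (ENSG00000177302; hg18, chromosome 17, 18117960 to 18159046), which separates recombined DNA together with BLM, stood at 30.2, 18.6 and 22.7 FPKM after genistein, against 48.8, 43.8 and 32.2 FPKM in DMSO. Every genistein library was lower, though genistein 1 came close to DMSO 3. TOP3A differed by -0.78 ± 0.34 (log2; 95% interval -1.57 to 0.0015; limma adjusted p = 0.167). TOP3B (ENSG00000100038; hg18, chromosome 22, 20641397 to 20667213), which also acts on RNA with its partner TDRD3, stood at 63.4, 53.7 and 46.6 FPKM after genistein, against 20.4, 32.3 and 45.8 FPKM in DMSO. The groups did not overlap, but genistein 3 and DMSO 3 were nearly equal. TOP3B differed by 0.78 ± 0.46 (log2; limma adjusted p = 0.290). A pseudogene, TOP3BP1, has no row of its own, and its reads could be counted with TOP3B.

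Of the phosphodiesterases, TDP1 (ENSG00000042088; hg18, chromosome 14, 89491999 to 89580859) stood at 28.3, 32.1 and 23.3 FPKM after genistein, against 15.0, 22.5 and 15.2 FPKM in DMSO. The groups did not overlap, with genistein 3 just above DMSO 2. TDP1 differed by 0.65 ± 0.33 (log2; limma adjusted p = 0.227). TDP2 (ENSG00000111802; hg18, chromosome 6, 24758185 to 24775094), the enzyme specific to the type II adduct, stood at 90.7, 84.0 and 118 FPKM after genistein, against 91.3, 204 and 148 FPKM in DMSO. DMSO 1 lay within the genistein range. The log2 difference of TDP2 was -0.54 ± 0.36 (95% interval -1.36 to 0.29; limma adjusted p = 0.349). That interval covers 0.

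BMP6 against DMSO sets the hepcidin-raising ligand against the vehicle. No member passed (limma, 0 of 8; background 0.837%, of which 0.34% higher and 0.498% lower), 2 of 8 had an unadjusted p under 0.05 (background 18.9%), and 3 of 8 did not overlap (background 33.3%). TOP2A stood at 1023 and 429 FPKM in BMP6 1 and 2, above all DMSO libraries (195, 339 and 203 FPKM). BMP6 1 was the highest value of any member in any library. The log2 difference was 1.48 ± 0.50 (95% interval 0.34 to 2.61; limma unadjusted p = 0.0170, adjusted p = 0.180). It came to 2.10 without BMP6 2 (limma adjusted p = 0.0387) and to 0.85 without BMP6 1 (limma adjusted p = 0.431). Either omission leaves a single BMP6 library, which the fit assumes to vary like the other groups.

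TOP1MT was lower after BMP6, with 34.6 and 152 FPKM in BMP6 1 and 2, below all DMSO libraries (263, 180.1 and 159 FPKM). BMP6 2 was close to DMSO 3, and BMP6 1 was the lowest TOP1MT value of the study. The log2 difference was -1.42 ± 0.62 (limma unadjusted p = 0.0496, adjusted p = 0.265). It came to -2.47 without BMP6 2 (limma adjusted p = 0.0285) and to -0.37 without BMP6 1 (limma adjusted p = 0.732), again with a lone BMP6 library whose spread the other groups supply. TOP3A stood at 22.0 and 27.2 FPKM, below the DMSO libraries (48.8, 43.8 and 32.2 FPKM), and differed by -0.72 ± 0.38 (log2; limma adjusted p = 0.332).

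In the other 5 members the BMP6 and DMSO libraries overlapped. TOP2B stood at 188 and 73.1 FPKM after BMP6, the first above and the second within the DMSO range, and its log2 difference was 0.94 ± 0.55 (limma adjusted p = 0.379). TOP3B, at 22.6 and 60.5 FPKM, was low in BMP6 1 and high in BMP6 2. TOP1 stood at 142 and 170.2 FPKM after BMP6, and its log2 difference from DMSO was 0.11 ± 0.32 (95% interval -0.63 to 0.84; limma adjusted p = 0.879). TDP1 stood at 22.4 and 24.3 FPKM and TDP2 at 148 and 117 FPKM after BMP6, with log2 differences of 0.41 ± 0.37 and -0.09 ± 0.40. The intervals of both include 0.

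**Figure D2:**
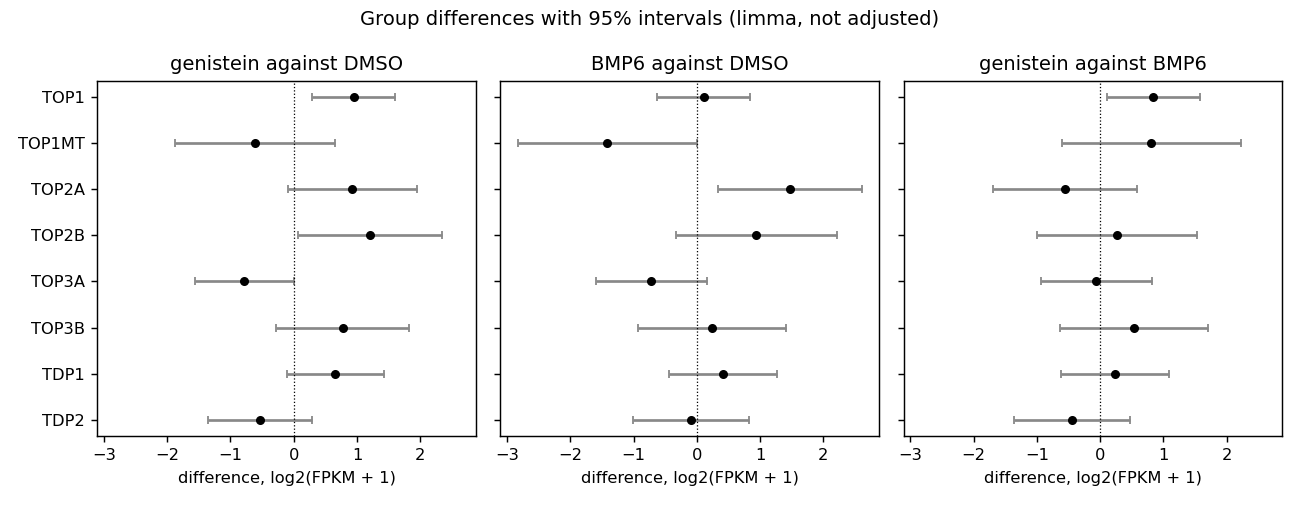
Log2 difference of each member in the 3 comparisons (genistein against DMSO, BMP6 against DMSO, genistein against BMP6), with 95% limma intervals. The interval of TOP1 lies above 0 in both comparisons of genistein, and no member passed after adjustment over 12661 genes.

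Genistein against BMP6 compares the treatments directly. No member passed (limma, 0 of 8; background 1.39%, of which 0.64% higher and 0.75% lower), and 1 of 8, TOP1, had an unadjusted p under 0.05 (background 14.7%). TOP1 was also the 1 member whose libraries did not overlap (background 28.9%), at 251, 328 and 264 FPKM after genistein, against 142 and 170.2 FPKM after BMP6. The log2 difference was 0.84 ± 0.32 (95% interval 0.11 to 1.57; limma unadjusted p = 0.0294, adjusted p = 0.276). For the other 7 members the log2 difference lay between -0.55 (TOP2A) and 0.81 (TOP1MT), and all 7 intervals included 0. The 3 comparisons share libraries, so their values are not independent of each other.

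The make-up of the summed topoisomerase level was described per library. The 6 topoisomerases together came to 1105 ± 130 FPKM after genistein (957 to 1200), 1172 ± 368 after BMP6 (912 and 1433) and 733 ± 102 in DMSO (674 to 850). The sum was higher in every genistein and BMP6 library than in every DMSO library. TOP2A made up 41.7 ± 8.47% of the sum after genistein, 59.2 ± 17.2% after BMP6 and 33.0 ± 6.06% in DMSO. In BMP6 1 TOP2A alone held 71.4%.

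TOP3A held 2.22 ± 0.826% of the sum after genistein, 2.26 ± 1.02% after BMP6 and 5.72 ± 1.32% in DMSO. Its share in each DMSO library (4.77 to 7.23%) was above that in every genistein (1.61 to 3.16%) and BMP6 library (1.53 and 2.98%). TOP1MT held 12.6 ± 5.73% after genistein, 9.53 ± 10.1% after BMP6 and 27.9 ± 9.66% in DMSO. TOP1 held 25.5 ± 3.20% after genistein, 14.3 ± 6.20% after BMP6 and 19.9 ± 3.08% in DMSO, with an overlap between genistein and DMSO. TOP2B held 12.9 ± 1.63% after genistein, 10.6 ± 3.62% after BMP6 and 8.89 ± 3.55% in DMSO, and its genistein shares (11.8 to 14.8%) lay just above its DMSO shares (4.83 to 11.4%). TOP3B had shares that overlapped among the 3 groups. The shares are not independent, since a higher share of 1 enzyme lowers those of the others.

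**Figure D3:**
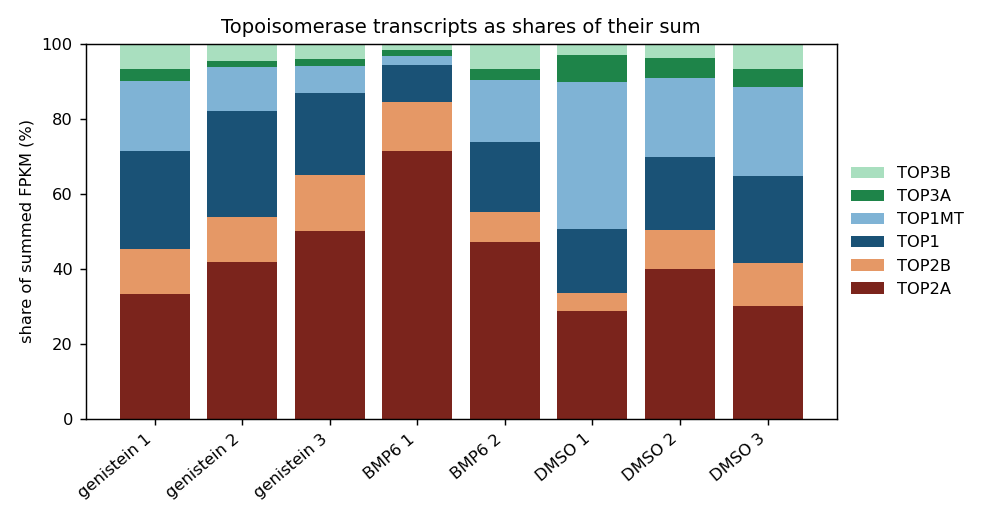
Share of the summed FPKM of TOP1, TOP1MT, TOP2A, TOP2B, TOP3A and TOP3B in each library, in percent, with genistein, BMP6 and DMSO from left to right. TOP2A reaches 71.4% in BMP6 1, and TOP1MT reaches 39.0% in DMSO 1.

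Within each library TOP2A exceeded TOP2B. The ratio of TOP2A to TOP2B in FPKM was 2.73, 3.54 and 3.38 after genistein, 5.44 and 5.87 after BMP6, and 5.96, 3.83 and 2.64 in DMSO. The log2 ratios tested below were taken on the FPKM + 1 scale. Both BMP6 ratios were above all genistein ratios, whereas DMSO spanned both. The log2 ratio differed by -0.82 between genistein and BMP6, with an exact two-sided permutation p of 0.2, the smallest that 3 against 2 libraries allow (0.6 adjusted over the 3 comparisons). Between genistein and DMSO it differed by -0.28 (exact permutation p = 0.5), and between BMP6 and DMSO by 0.54 (exact permutation p = 0.6). Both had an adjusted p of 0.6.

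TOP2A is a cell cycle gene, so its level was set against 23 genes of G2 and mitosis in the same library. The mean log2(FPKM + 1) of those genes was 7.44, 7.38 and 7.44 after genistein, 7.20 and 7.35 after BMP6, and 5.66, 6.23 and 6.25 in DMSO. The list was thus higher in all 5 treated libraries than in all 3 DMSO libraries. TOP2A exceeded that mean by 0.88, 1.54 and 1.80 after genistein, 2.80 and 1.40 after BMP6, and 1.95, 2.19 and 1.43 in DMSO (log2). The groups overlapped in each comparison. The difference in this excess was -0.45 for genistein against DMSO (exact two-sided permutation p = 0.3; smallest possible 0.1). It was 0.24 for BMP6 against DMSO (exact permutation p = 0.8) and -0.69 for genistein against BMP6 (exact permutation p = 0.6), each with an adjusted p of 0.8.

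MKI67, the proliferation antigen, stood at 74.5, 59.7 and 62.0 FPKM after genistein, 63.6 and 84.9 after BMP6, and 20.0, 30.9 and 32.5 in DMSO. CCNB1, the mitotic cyclin, stood at 604, 502 and 521 FPKM after genistein, 525 and 548 after BMP6, and 131, 207 and 212 in DMSO. For both genes the treated libraries lay above every DMSO library. Against DMSO, MKI67 rose by 1.23 ± 0.32 (log2; limma adjusted p = 0.0438) and CCNB1 by 1.59 ± 0.30 (limma adjusted p = 0.0174) after genistein. The MKI67 call was lost without any 1 of the 6 genistein and DMSO libraries (adjusted p up to 0.141), and that of CCNB1 without genistein 1, 2 or 3 or DMSO 2 (up to 0.0763).

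The genes that work with topoisomerases or mend their lesions were described from 10 lists of 135 tested genes. Genistein libraries had 18 of them higher and 3 lower against DMSO, beside 6.11% higher and 5.96% lower of all tested genes. The lists were chosen with earlier results of these data known. Their median log2 difference was 0.33, beside 0.05 over all tested genes. With 12.1% of all tested genes called, 1 called gene in a list of 12 or 2 in a list of 14 is near the background. The all-gene count for genistein against DMSO was 1527 of 12661, and as few as 244 with 1 library left out. Calls were thus lost across all tested genes in such fits, and not only in the lists.

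Of 14 genes that repair type II adducts, 2 rose after genistein and none fell, a count near the background share. RBBP8 (CtIP, which starts the resection of broken ends) stood at 55.7, 43.2 and 68.7 FPKM after genistein, against 9.32, 21.3 and 18.9 in DMSO, and rose by 1.75 ± 0.41 (log2; limma adjusted p = 0.0310). MRE11, the nuclease that removes blocked ends, stood at 78.6, 49.0 and 64.8 FPKM, against 19.4, 28.03 and 30.2 in DMSO, and rose by 1.27 ± 0.33 (limma adjusted p = 0.0430). The genistein libraries of both were above all DMSO libraries. Yet each call was lost without any 1 of the 6 genistein and DMSO libraries (limma adjusted p up to 0.129 for RBBP8 and 0.147 for MRE11). After BMP6, MRE11 stood at 59.4 and 71.4 FPKM and RBBP8 at 23.5 and 33.1. Their log2 differences from DMSO were 1.32 ± 0.37 and 0.80 ± 0.45 (limma adjusted p = 0.134 and 0.365).

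Of 12 genes that repair type I adducts, 1 fell and none rose. FEN1, the flap nuclease, stood at 28.6, 29.03 and 24.3 FPKM after genistein, against 54.5, 71.5 and 90.9 in DMSO, a log2 difference of -1.35 ± 0.34 (limma adjusted p = 0.0387). Reads of the pseudogene FEN1P1, which has no row, could be counted with FEN1. Of the 5 partners of TOP3A and TOP3B, BLM rose, and TOP3A, whose partner it is, did not pass. BLM, the helicase that works with TOP3A, stood at 27.6, 36.4 and 27.1 FPKM after genistein, against 3.64, 9.61 and 8.44 in DMSO, and rose by 2.01 ± 0.43 (limma adjusted p = 0.0243). The count of the type I list was 2 (1 higher, 1 lower) without BMP6 1 or without BMP6 2. The FEN1 and BLM calls were each lost without 5 of the 6 genistein and DMSO libraries (genistein 1, 2 or 3, DMSO 2 or DMSO 3). After BMP6, BLM stood at 13.5 and 19.7 FPKM and FEN1 at 69.9 and 116. Their log2 differences from DMSO were 1.16 ± 0.48 and 0.34 ± 0.38 (limma adjusted p = 0.246 and 0.637).

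Condensins compact mitotic chromosomes together with TOP2A, and 2 of 8 rose. NCAPH, a subunit of condensin I, stood at 87.1, 73.0 and 88.9 FPKM after genistein, against 30.4, 17.9 and 22.0 in DMSO, and rose by 1.81 ± 0.31 (limma adjusted p = 0.0122). NCAPD3, a subunit of condensin II, rose by 1.39 ± 0.32 (limma adjusted p = 0.0304). The median log2 difference of the list was 0.99. The count was 3 without BMP6 1 and 4 without BMP6 2. NCAPH lost its call without genistein 1, genistein 3 or DMSO 2, and NCAPD3 without genistein 1, 2 or 3, DMSO 1 or DMSO 2.

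Of the 23 genes of G2 and mitosis, 12 rose after genistein and none fell, with a median log2 difference of 1.40. TTK, a spindle checkpoint kinase, stood at 86.3, 98.3 and 145 FPKM after genistein, against 15.0, 18.3 and 21.8 in DMSO, and rose by 2.50 ± 0.38 (limma adjusted p = 0.00924). CENPE, AURKA and PRC1, which act at the kinetochore and spindle, rose by 2.24, 1.89 and 2.20 on the log2 scale. The count of 12 was 4 without genistein 1, 4 without genistein 2 and 1 without genistein 3. It was 7 without DMSO 1, 0 without DMSO 2 and 5 without DMSO 3. With 1 library left out, the log2 difference ran from 2.28 to 2.65 for TTK and from 2.09 to 2.35 for CENPE. For AURKA it ran from 1.60 to 2.09, and for PRC1 from 1.79 to 2.48.

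Of 20 replication genes 1 fell, CCNE2, a cyclin of the entry into S phase. It was listed at 0 in all genistein and BMP6 libraries, against 3.48, 6.95 and 3.71 FPKM in DMSO (limma adjusted p = 0.0154). These values are near the floor. With a filter of a mean of at least 5 FPKM, the replication count was 0. Of 14 checkpoint genes 1 rose, MDC1, a mediator of the response to double-strand breaks, at 54.5, 58.8 and 59.7 FPKM after genistein, against 18.2, 22.0 and 23.2 in DMSO. Its log2 difference was 1.41 ± 0.29 (limma adjusted p = 0.0209). The replication count was 5 (2 higher, 3 lower) without BMP6 1 or without BMP6 2, and 0 without genistein 1, genistein 3 or DMSO 2, where CCNE2 lost its call. The checkpoint count was 3 without BMP6 1 and 4 without BMP6 2, and MDC1 lost its call without genistein 1, 2 or 3, DMSO 2 or DMSO 3.

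None of 16 p53 targets passed after genistein by limma, with 7 at an unadjusted p under 0.05 (background 30%). The list's median log2 difference was -0.11, with 7 genes higher and 9 lower in mean. The count was 3, all higher, with only the 2 groups compared and with median-of-ratios or quantile scaling. It was 2, both higher, with values above 0 in all libraries, and 7 (4 higher, 3 lower) with library weights. The correction for GC content described below gave 5 (4 higher, 1 lower). GC and length gave 6 (4 higher, 2 lower), and block with GC gave 4, all higher. GADD45B had the smallest p, at 195, 181 and 97.8 FPKM after genistein, against 54.5, 33.4 and 46.6 in DMSO (limma adjusted p = 0.0583). It stood at 88.2 and 304 FPKM after BMP6, a log2 difference from DMSO of 1.87 ± 0.57 (limma adjusted p = 0.152). None of 12 mitochondrial DNA genes passed after genistein by limma, and none had an unadjusted p under 0.05 in that comparison. Of 12 regulators of the MuvB, FOXM1 and NF-Y group 1 fell, RBBP4, a histone-binding MuvB subunit. It stood at 18.3, 3.54 and 7.84 FPKM after genistein, against 120.0, 61.3 and 196 in DMSO (log2 difference -3.64 ± 0.67, limma adjusted p = 0.0154). RBBP4 has 7 pseudogenes named RBBP4P1 to RBBP4P7 without a row of their own, so its reads could be split, and its call was lost without genistein 2, genistein 3 or DMSO 3.

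After BMP6 none of the 135 listed genes passed against DMSO by limma (background 0.837%), and 46 had an unadjusted p under 0.05 (background 18.9%). BMP6 had 2 libraries where genistein had 3, and the standard error of NCAPH, for example, was 0.35 against 0.31. The counts passing in the 2 comparisons are therefore not set against each other. The listed genes had a median log2 difference of 0.61, beside 0.33 for genistein against DMSO. The all-gene median log2 difference was -0.03. The G2 and mitosis list had a median of 1.39, with 17 of 23 at an unadjusted p under 0.05. The replication list had a median of 1.02, with 12 of 20. The condensin list had a median of 1.04, with 4 of 8, beside a median of 0.99 for genistein against DMSO. The list of type II adduct repair had a median of -0.01, beside 0.16 for genistein against DMSO. MYBL2 (B-MYB, which activates mitotic genes with MuvB) had the smallest p, at 345 and 681 FPKM after BMP6, against 109, 109 and 143 in DMSO (log2 difference 2.01 ± 0.37, limma adjusted p = 0.0557).

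Between the treatments, 2 listed genes passed, both lower after genistein than after BMP6 (background 0.75% lower). MCM3, a subunit of the replicative helicase, stood at 195, 141 and 155 FPKM after genistein, against 761 and 785 after BMP6 (log2 difference -2.25 ± 0.33, limma adjusted p = 0.0205). MYBL2 stood at 136, 122 and 120 FPKM after genistein, against 345 and 681 after BMP6 (log2 difference -1.94 ± 0.37, limma adjusted p = 0.0499). MCM3 lost its call without genistein 1, 2 or 3 or DMSO 2, and MYBL2 without any library other than BMP6 1. Of the 20 replication genes 19 were lower after genistein than after BMP6, CCNE2 was listed at 0 in both groups, and the list's median was -0.96, beside 0.12 over all tested genes.

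**Figure D4:**
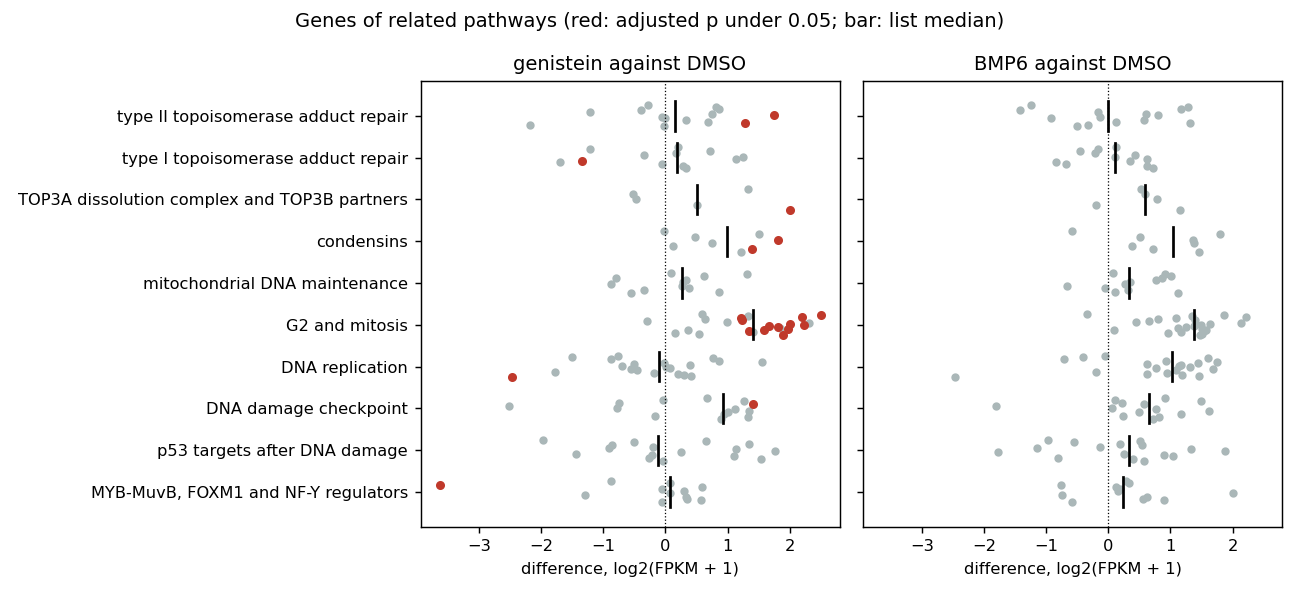
Log2(FPKM + 1) difference of each listed gene from DMSO after genistein (left) and BMP6 (right), by list; red points have an adjusted p under 0.05 and bars are list medians. The G2 and mitosis list has medians of 1.40 after genistein and 1.39 after BMP6, both against DMSO.

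Some libraries deviated from the others in relation to the GC content of the transcripts. Over 11993 tested genes with a GENCODE release 29 transcript (94.7%), the Spearman correlation of a library's deviation from the gene mean with transcript GC content was -0.02, 0.02 and -0.349 in genistein 1, 2 and 3. It was -0.387 and 0.432 in BMP6 1 and 2, and 0.05, 0.05 and 0.263 in DMSO 1, 2 and 3. The BMP6 libraries thus had opposite relations to GC content, and 4 of the 8 libraries had values near 0. This is a correlation across genes, which are not independent replicates.

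The members lie on both sides of the median GC content of 49.2%. TOP2A has 39.1%, TOP2B 39.7%, TDP2 40.1%, TOP1 42.2% and TDP1 45.2%, whereas TOP3A has 55.2%, TOP1MT 57.7% and TOP3B 59.3%. Of the low-GC members, TOP2A, TOP2B and TDP2 were higher in BMP6 1, and TOP1 and TDP1 in BMP6 2. The high-GC TOP3A, TOP1MT and TOP3B were all higher in BMP6 2. The folds that follow are on the FPKM + 1 scale. The BMP6 pair differed 2.61-fold in TOP3B, and 1.03-fold after the GC relation was removed. For TOP1MT the same pair differed 4.29-fold, and 1.87-fold after the correction. Within BMP6 the gap widened in 2 of 8 members, TOP3A (1.23-fold before the correction, 1.62-fold after) and TOP1. TOP2A and TOP2B stayed apart, at 2.38-fold and 2.55-fold before the correction and 1.89-fold and 2.12-fold after it.

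The correction, chosen after seeing the data, widened the SD in 10 of the 24 combinations of member and group, 5 of them after genistein. For TOP1 within genistein, the SD was 0.20 log2 before the correction and 0.57 after it. The part of GC content in the members' differences was not tested further. With it 1 member was called in genistein against DMSO, TOP3B, which was higher after genistein with a log2 difference of 0.90 and an adjusted p of 0.0367 (limma). With the replicate numbers as a block in addition, TOP3B had an adjusted p of 0.0896.

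**Figure D5:**
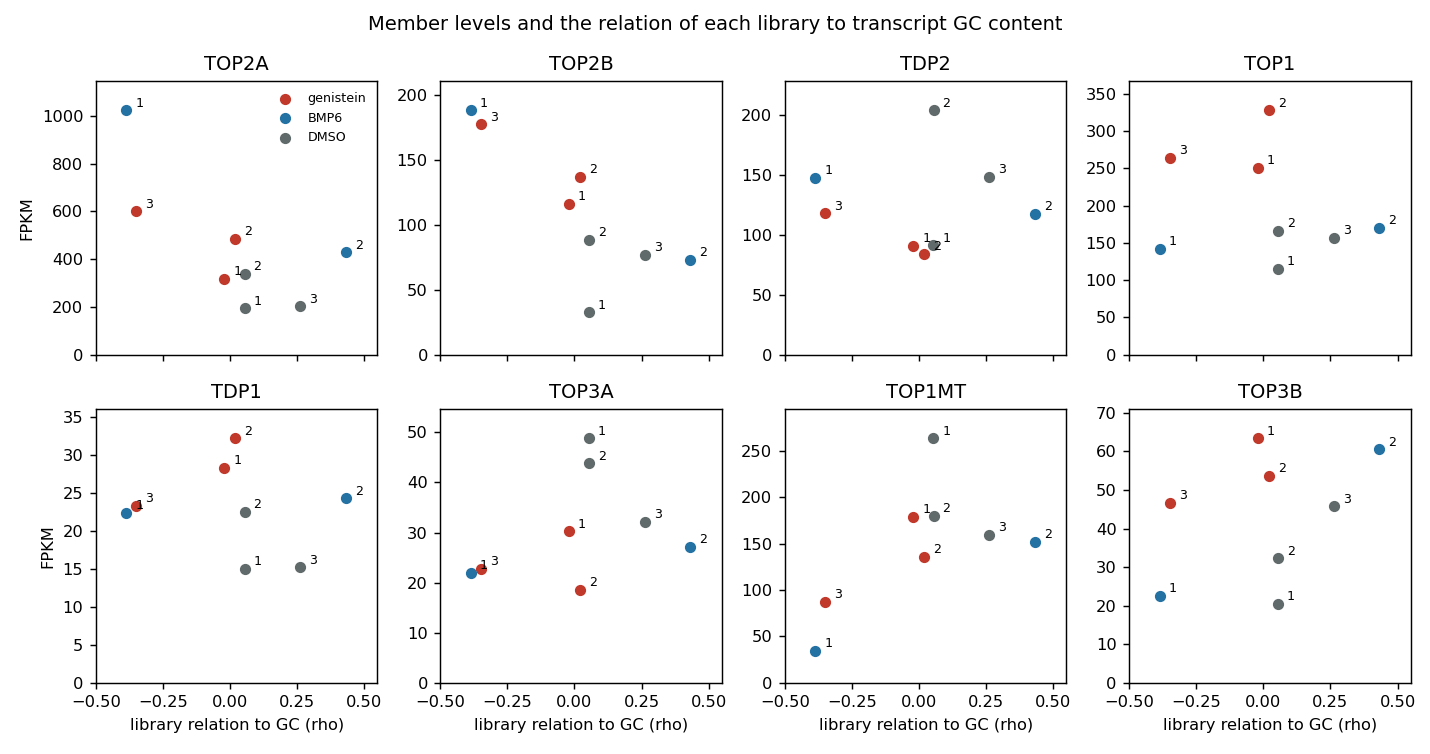
FPKM of the 8 members, ordered by GC content, in each library (y axis) by that library's Spearman correlation of gene deviations with transcript GC content over 11993 genes (x axis), with replicate numbers. BMP6 1 (-0.387) and BMP6 2 (0.432) stand at the opposite ends.

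The genes whose log2(FPKM + 1) ran closest to each member across the 8 libraries were found among 9291 tested genes above 0 in all of them, by Pearson r as a description. TOP2A was closest to SINHCAF (0.963), HBS1L (0.961) and SMC2 (0.957), and SMC2 encodes a core condensin subunit. TOP2B was closest to TOM1L1 (0.990), MMADHC (0.985) and SLC41A2 (0.984). TOP1 was closest to MYADM (0.987), TUT4 (0.986) and COQ10B (0.983). The type IA enzymes had other neighbours.

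TOP3A was closest to RWDD3 (0.980), CABP7 (0.979) and LYSMD4 (0.975), and TOP3B to ZFAND2B (0.995), DDX54 (0.990) and NELFB (0.989). TOP1MT was closest to CYP2D7 (0.990), TSPYL2 (0.990) and TMEM198 (0.990). TDP1 was closest to SYS1 (0.962), FASTKD1 (0.951) and CCDC59 (0.951), and TDP2 to GTF3C4 (0.946), LGR5 (0.942) and PRKAR2A (0.928). The 8 points share their libraries' depth and GC relation, and the values carry no test. Among the members, TOP2A and TOP2B ran together (0.829) and TOP2A and TOP1MT ran opposite (-0.901), over the same 8 libraries.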

How the data were processed

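PolyA RNA of HepG2 cells was sequenced in 8 libraries, with RNA integrity numbers above 8.5 per the labels' protocols. The authors deposited a single FPKM value per Ensembl gene in each library, as the headers show. Per the submitters' processing notes, the tools were Cufflinks 1.0.3, TopHat 1.1.0, Cuffdiff and Bowtie and the build was hg18; no settings are listed. Among the 1000 lowest values above 0 of each library, FPKM had a Spearman correlation with transcript length of -0.1005 to 0.0751. Depth was not recovered from these values and is unknown. No count model was used, and neither counting intervals nor floors were computed. Coordinates are those of the files, counted from 1. No source used here says whether counting used strand.

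Groups came from the sample titles. The 12661 genes that reached 1 FPKM in 2 or more libraries were converted to log2(FPKM + 1), a scale that understates the change of low genes. All 8 libraries entered a single limma 3.58.1 fit in R 4.3.3 (intensity trend, a spread shared by the 3 groups, residual degrees of freedom 5 and prior 3.22, two-sided, Benjamini-Hochberg over all tested genes, threshold 0.05). The limma script was tested on simulated data. Exact permutation tests used SciPy 1.17.1 in Python 3.11.15. Background is the share of all tested genes that met the same rule.

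The members and lists were chosen with earlier results of these data known. The text names all 8 members, up to 4 called genes with the smallest p per list and comparison or else the 1 with the smallest p (not all of the latter are given), MKI67 and CCNB1, and the 3 genes most like each member. Alternatives were other pseudocounts (0.1 and 5), filters, scalings, priors and weights, a replicate block, libraries left out, and GC corrections (natural spline, 4 degrees of freedom) added after seeing the data. P-values measure the spread between these libraries.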

Additional observations from a re-analysis of the deposited data

How the results depend on the processing

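The count of members past the threshold for genistein against DMSO (0) was 3 with library weights (TOP1, TOP3A and TDP2). The weights stopped short of their convergence tolerance. The count was 1 with only the 2 groups compared (TOP1). It was 1 with the GC content correction and 1 with the GC content and length correction (TOP3B both times). It was 0 without any 1 genistein or DMSO library, and the passes of TOP1 without a BMP6 library are given above. The number of all tested genes called also moved, from 1527 of 12661 to as few as 244 with 1 library left out. The member counts were not set beside that number for each setting, so they are not read as a result about the members. Against DMSO, BMP6 (0) had 0 to 2 with 1 library left out, and for genistein against BMP6 it was 0 under every setting. With DMSO 1, genistein 2 and BMP6 1 left out together it was 0 in each comparison.

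The 21 listed genes for genistein against DMSO came to 4 with the replicate block, 59 with library weights, 36 with only 2 groups, 41 with the GC correction, 44 with GC and length, 32 with block and GC, and 1 to 38 with 1 library left out. The 0 listed genes for BMP6 against DMSO came to 2 each with a pseudocount of 5, no filter, values above 0 in all libraries, the 3 libraries left out, and block with GC. They came to 8 with median-of-ratios scaling, 4 with quantile normalization, 15 with GC, 21 with GC and length, and 0 to 20 with 1 library left out. The 2 for genistein against BMP6 came to 1 with a mean of at least 5 FPKM or a robust prior, 6 with median-of-ratios scaling or the 3 libraries left out, 5 with quantile normalization, 0 with the replicate block, weights or only 2 groups, 7 with GC, 10 with GC and length, 4 with block and GC, and 0 to 4 with 1 library left out. The causes were not tested.

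Directions reversed as follows (log2). In BMP6 against DMSO, TOP1 was -0.071 with weights and TOP2B -0.17 with the 3 libraries left out. In genistein against BMP6, the 3 libraries left out gave TOP1MT -0.28, TOP2A 0.026 and TOP3B -0.15. TOP3A was 0.035 with the replicate block and 0.062 with block and GC. CCNB1 was -0.19 with median-of-ratios scaling, -0.036 with the replicate block, -0.059 with GC, -0.030 with GC and length and -0.039 with block and GC. With 1 library left out, BMP6 against DMSO spanned -0.053 to 0.24 for TOP1, -0.45 to 0.93 for TOP3B and -0.40 to 0.18 for TDP2. Genistein against BMP6 spanned -0.24 to 1.86 for TOP1MT, -1.18 to 0.076 for TOP2A, -0.41 to 0.94 for TOP2B, -0.24 to 0.10 for TOP3A, -0.16 to 1.23 for TOP3B, -0.069 to 0.065 for CCNB1 and -0.38 to 0.032 for MKI67. The log2 ratio of TOP2A to TOP2B spanned -0.56 to 0.012 for genistein against DMSO. TOP2A relative to G2 and mitosis genes spanned -0.46 to 0.94 when BMP6 was set against DMSO, and -1.39 to 0.012 when genistein was set against BMP6. No member reversed in genistein against DMSO in 23 settings.

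Same-numbered deviations from the group means correlated at -0.146, -0.065 and -0.005 between genistein and DMSO. They correlated at -0.247 and 0.286 between genistein and BMP6, and at 0.055 and 0.001 between BMP6 and DMSO. The 2 BMP6 deviations mirror each other, and these few values can neither show nor exclude a pairing. No member was called with the replicate block (0 in each comparison), as in the main fit. Median-of-ratios scaling moved the all-gene median by -0.15 where genistein was compared with BMP6, by -0.10 where it was compared with DMSO, and by 0.05 for BMP6 against DMSO. With 2 BMP6 libraries of opposite GC relation and unknown depth, differences of the size seen in TOP2A and TOP1MT were not resolved.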
